A study of Mus musculus with 21 samples.

Results

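Zfp36, Zfp36l1, Zfp36l2, Zc3h12a and Elavl1 encode proteins that bind messenger RNA and set how long it lasts. These 5 members were chosen by gene symbol, with earlier results of these data known, from 18193 genes that have a probe set annotated with 1 symbol. They are measured by 14 of 34945 such probe sets. Aortic smooth muscle cells of male C57BL/6J mice aged 10 to 12 weeks were kept in culture with fetal calf serum, and all groups were fed 24 h before stimulation. Control cells received PBS alone, and the others received alpha-LTBR, an antibody to the lymphotoxin beta receptor, at 10 µg/ml, TNFalpha (TNF) at 1 ng/ml, or both agonists at these doses. The control, antibody and TNF groups had 4 arrays at 24 h (labels number them 0 to 3), and both agonists had 3 (numbers 1 to 3). Single arrays, all with the number 0, covered the control, the antibody and TNF at 2 h and at 6 h, with none for both agonists. Whether each number is its own culture or animal is not in the labels, and the p-values therefore speak only of the spread among these arrays, which may be technical.

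Zfp36 (tristetraprolin), Zfp36l1 and Zfp36l2 share paired CCCH zinc fingers that bind AU-rich elements in the 3′ end of short-lived transcripts, many of them for cytokines, and recruit the machinery that removes the poly(A) tail. Zc3h12a (regnase-1) is an endonuclease that cuts stem-loops in inflammatory transcripts. Elavl1 (HuR) binds AU-rich and U-rich elements and usually stabilizes the transcript. TNF and LTBR signalling both act through NF-kB, and the messenger RNAs of Zfp36 and Zc3h12a are known to be induced by inflammatory signals.

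The 250 bases upstream of the annotated start are shown for Zfp36 and Zfp36l1, the members whose leading probe set (the one with the highest mean signal) differed most from the control after TNF at 2 h. They are from RefSeq, assembly GRCm38.p6, which held a promoter for 4 of the 5 members. Zfp36 lies on chromosome 7 (chr7:28379229-28379478 upstream, minus strand), and Zfp36l1 on chromosome 12 (chr12:80113014-80113263 upstream, minus strand). Both are printed 5′ to 3′ on the gene's strand, and capitals mark the motif matches described after them.
Zfp36: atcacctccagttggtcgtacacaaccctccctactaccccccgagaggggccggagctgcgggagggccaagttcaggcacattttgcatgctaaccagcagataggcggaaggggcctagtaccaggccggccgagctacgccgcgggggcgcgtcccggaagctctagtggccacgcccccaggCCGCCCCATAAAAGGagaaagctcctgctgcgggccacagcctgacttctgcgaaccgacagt
Zfp36l1: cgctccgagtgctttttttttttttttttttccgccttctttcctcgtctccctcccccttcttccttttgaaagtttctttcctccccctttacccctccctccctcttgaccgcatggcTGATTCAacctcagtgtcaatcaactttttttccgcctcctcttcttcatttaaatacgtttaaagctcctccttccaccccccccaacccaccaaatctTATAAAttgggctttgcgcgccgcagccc

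Counting upstream from the base before the start, the capitals in Zfp36 join a GGGCGG match on the opposite strand (bases 63 to 58) and a match to the CArG box, the site of serum response factor (bases 58 to 49), which share base 58. A CArG box match was found in 1.47% and GGGCGG in 32.7% of 32851 promoter windows of the same length. The capitals in Zfp36l1 mark TGANTCA, the site form known for AP-1 (bases 129 to 123), and TATAAA on the gene's strand (bases 29 to 24). These were found in 6.75% and 12.4% of windows. All motifs were searched on both strands, so each share, that of TATAAA included, counts windows with a match on either strand. The NF-kB consensus was found in 7.25% of windows and in 0 of the 4 members' windows. A match is a run of letters and was not tested as a binding site.

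The arrays had been scaled to one trimmed mean, and their medians ran from 106.8 to 139.0. Of 8 smooth muscle markers, 6 to 8 were above the median of the array. The arrays numbered 0 stood apart. Among 10 endothelial markers 9 were above the median on each 24 h array numbered 0, with a summed signal of 20097 to 21295, against 3 to 6 markers and 1526 to 3834 on the arrays numbered 1 to 3. The 2 h and 6 h arrays, all numbered 0, had sums of 16959 to 19749. The summed signal of the 8 smooth muscle markers was 34843 to 36957 on the 24 h arrays numbered 0. This lay within the 30204 to 47307 of the arrays numbered 1 to 3. Of single markers, Myh11, the smooth muscle myosin heavy chain, averaged 138 on the 24 h arrays numbered 0 and 1805 on the others. Tagln averaged 13382 and 13149. Of 8 macrophage and monocyte markers 3 to 5 were above the median on each array: Csf1r, Lyz2 and Cd14 on 21 of 21 arrays, Adgre1 on 16, Cd68 on 5, and Ptprc, Itgam and Fcgr1 on 0. The summed signal of these 8 markers was 1120 to 1349 on the 24 h arrays numbered 0 and 1498 to 4483 on those numbered 1 to 3. In bulk RNA, fewer cells of a type and less RNA per cell cannot be told apart.

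Zfp36l1 was the one member called against the control at 24 h (adjusted p under 0.05), as read on its leading probe set. At 24 h it was 1.73-fold higher with the antibody and 1.95-fold higher with both agonists than in the control. On probe set 1450644_at the control arrays numbered 0 to 3 had signals of 2321.1, 2531.7, 3113.7 and 3026.5. The antibody arrays had 4160.0, 4804.8, 4868.1 and 5123.5, so every antibody array lay above every control array. The arrays with both agonists, numbered 1 to 3, had 5866.0, 5311.7 and 4877.3 and also lay above all controls. With TNF alone the signals were 2877.5, 3467.8, 2505.1 and 3172.7, which overlap the control. In order, the group means were 2748 ± 383 in the control (SD, n = 4), 3006 ± 412 with TNF (n = 4), 4739 ± 410 with the antibody (n = 4) and 5352 ± 496 with both (n = 3). Control and TNF did not differ beyond their spread, nor did the antibody and both agonists.

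**Figure D1:**
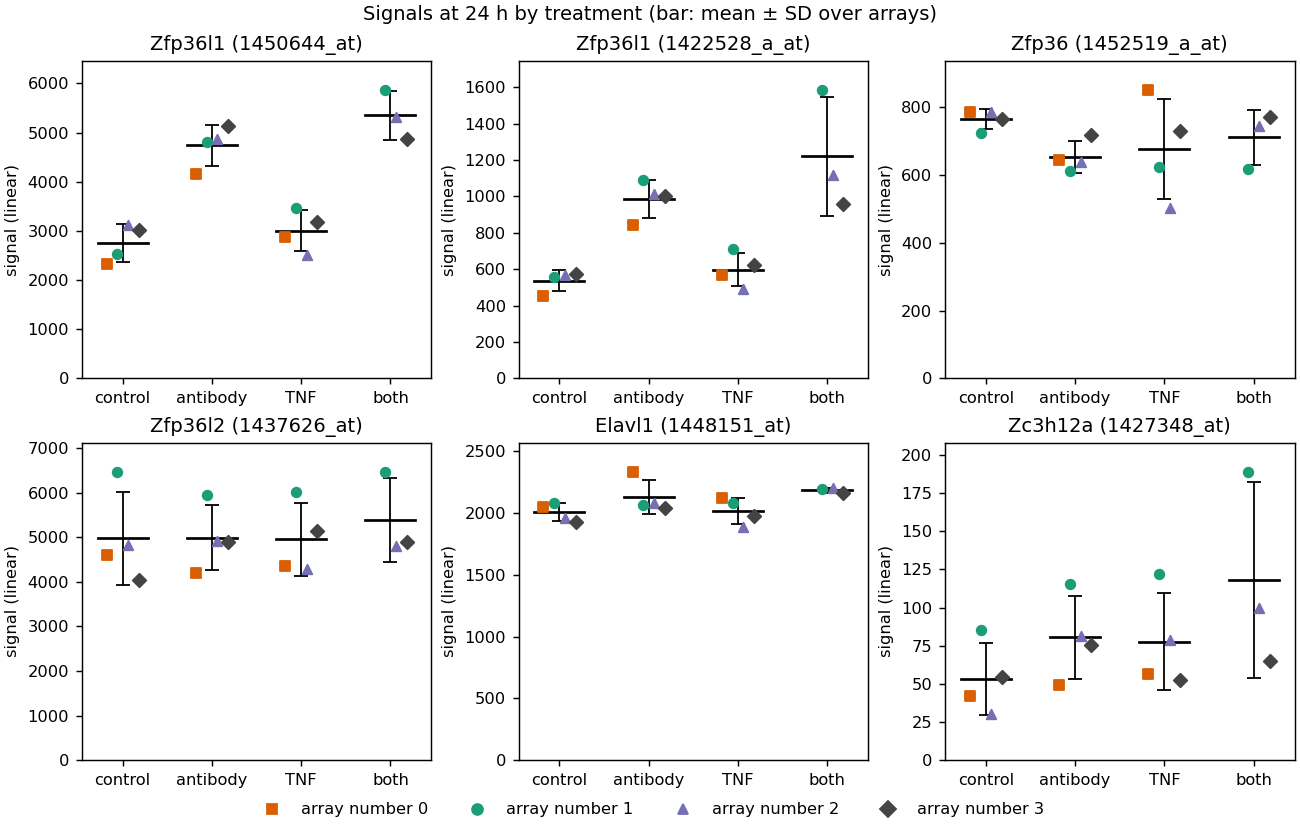
Signal (linear scale, from 0) at 24 h for 6 probe sets of the 5 members by treatment. Points are arrays, with colour and shape for the array number, and bars give the mean ± SD. On both Zfp36l1 probe sets all antibody arrays and all arrays with both agonists lie above the control arrays, while on Zfp36l2 the array numbered 1 is the highest in every group.

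A call is an adjusted p under 0.05 (limma, Benjamini-Hochberg over all 12446 genes tested), and for the members it is a description. Changes are on the log2(signal + 10.2) scale, with the standard error. For Zfp36l1 the change was 0.79 ± 0.12 with the antibody (limma, adjusted p = 0.0147), 0.13 ± 0.12 with TNF (adjusted p = 1.00) and 0.97 ± 0.13 with both (adjusted p = 0.000689). The members called were 1 of 5 with the antibody, where 0.129% of genes were called, 0 of 5 with TNF (0.337%; 583 genes had an unadjusted p under 0.05, 0 of them members) and 1 of 5 with both (2.45%). Groups did not overlap with the control for 2 of 5 members with the antibody (2.79% of genes), 0 of 5 with TNF (2.54%) and 2 of 5 with both (11.6%). The 3 comparisons share their control arrays. Leaving out 1 of 4 arrays ended the Zfp36l1 call for the antibody: control number 1 (0.75, adjusted p = 0.0758) and antibody numbers 1 (0.78, adjusted p = 0.0727), 2 (0.78, adjusted p = 0.0801) and 3 (0.75, adjusted p = 0.0592). Over all alternatives that adjusted p ran from 0.000142 to 0.0801. In the fit with the replicate number as a block it was 0.000346 (limma, where 4.78% of genes were called).

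Within each number the antibody array exceeded its control by 0.64 to 0.92 on the log2 scale, and this was 0.84 for the arrays numbered 0. With both agonists the within-number differences were 1.21, 0.77 and 0.69 for numbers 1, 2 and 3. With TNF they were 0.31, 0.45, -0.31 and 0.07 for numbers 0 to 3, higher in 3 of 4. The second Zfp36l1 probe set, 1422528_a_at, gave the same order of group means. Its signals were 453.1, 555.3, 567.3 and 575.9 in the control and 842.1, 1091.9, 1014.4 and 1004.0 with the antibody. With TNF they were 571.2, 708.9, 489.1 and 625.1, and with both agonists 1585.6, 1116.2 and 960.7. Here too the antibody arrays and those with both agonists lay above all controls, while TNF overlapped them. In the fit over 25110 probe sets its change was 0.87 ± 0.15 with the antibody (limma, adjusted p = 0.0444, where 0.143% of probe sets were called) and 1.14 ± 0.17 with both (adjusted p = 0.00188, where 1.91% were called). The antibody call on this probe set ended in 17 of 25 alternatives, among them 12 of the 15 that leave out 1 array, with changes of 0.79 to 0.94 over those 15. It was kept without TNF number 2 or without number 1 or 3 of both agonists.

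Adding the antibody to TNF went with a Zfp36l1 change of 0.84 ± 0.13 over TNF alone, or 1.79-fold (limma, adjusted p = 0.0456, where 0.0482% of genes were called, 6 in all and 1 of 5 members). This call stood close to the threshold. Without the block it ended when any 1 of 13 of the 15 arrays was left out, with changes of 0.75 to 0.91. The call was kept only when the control or the antibody array numbered 0 was left out. The fit with the replicate number as a block gave 0.78 and kept the call (limma, adjusted p = 0.000884, where 6.78% of genes were called). Adding TNF to the antibody went with a change of 0.18 (95% interval -0.10 to 0.45; limma, adjusted p = 0.998, where 0.362% of genes and 0 of 5 members were called). The log2 difference of TNF from the antibody was -0.66 (95% interval -0.91 to -0.41; limma, adjusted p = 0.126, where 0.0161% of genes and 0 of 5 members were called). With the replicate number as a block this difference was called (adjusted p = 0.00516, where 0.723% of genes and 1 of 5 members were called). The departure of both agonists from the sum of the single changes was 0.05 (95% interval -0.32 to 0.42; limma, adjusted p = 1.00), and it was -0.01 with the block.

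The time course rests on the arrays numbered 0, with 1 array per group and thus no replicate check and no p-value. Zfp36l1 was higher after TNF already at 2 h. On 1450644_at the control gave 2335.3, 2216.0 and 2321.1 at 2, 6 and 24 h. TNF gave 4123.0, 3573.7 and 2877.5, so its difference from the control of the same time was 0.82, 0.69 and 0.31 on the log2 scale. The antibody gave 2804.2, 3689.2 and 4160.0, with differences of 0.26, 0.73 and 0.84. TNF was thus highest at 2 h and the antibody at 24 h, and the control stayed within a narrow range.

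On 1422528_a_at the differences were 0.59, 0.65 and 0.33 with TNF and 0.05, 0.60 and 0.88 with the antibody, so on this probe set the 6 h value with TNF was the highest. Among genes whose higher array was above its median, 2.32% had a difference at least as high as that of Zfp36l1 on 1450644_at with TNF at 2 h, 4.49% with TNF at 6 h, 9.67% with the antibody at 2 h and 1.7% with the antibody at 6 h. All these arrays carried the high endothelial marker signals, at 17478 to 18936 summed at 2 h, and the part of those cells in the time course was not tested. At 24 h the difference on 1450644_at with the antibody was 0.92, 0.64 and 0.76 on the arrays numbered 1 to 3, against 0.84 on number 0. With TNF it was 0.45, -0.31 and 0.07 on the arrays numbered 1 to 3, against 0.31 on number 0.

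**Figure D2:**
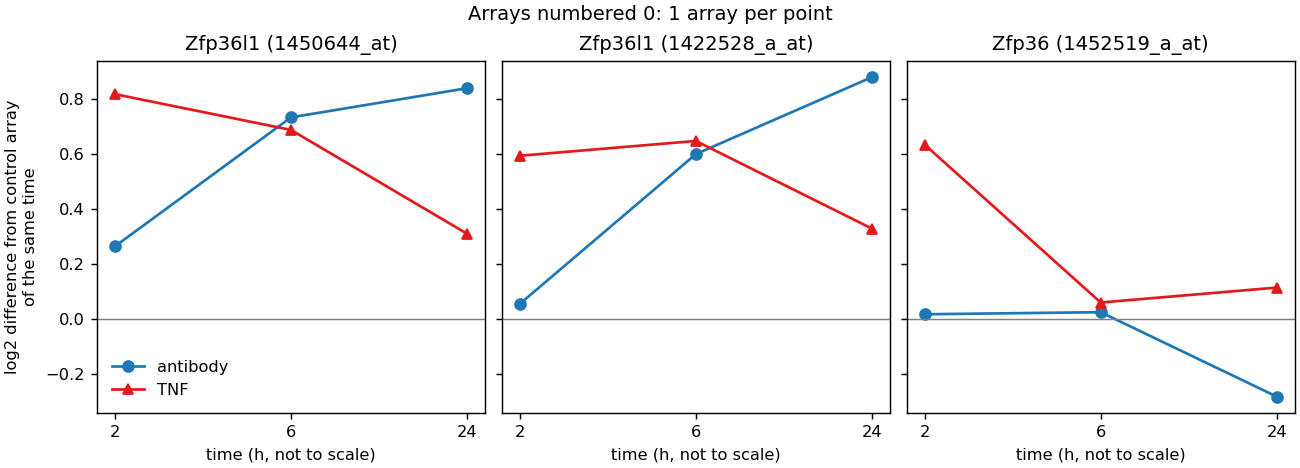
Log2 difference between the treated array and the control of that time (vertical axis) at 2, 6 and 24 h (horizontal axis, not to scale) for 3 probe sets, arrays numbered 0, 1 array per point. On 1450644_at TNF falls from 0.82 to 0.31 and the antibody goes from 0.26 to 0.84; on Zfp36 the TNF value is 0.63 at 2 h and 0.06 at 6 h.

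Zfp36 itself, which has 1 probe set (1452519_a_at), stood out on a single array. TNF gave 1163.9 at 2 h against 746.4 in the control, a 1.55-fold difference (log2 0.63) that 3.77% of genes reached. At 6 h TNF gave 797.9 against 765.6. The antibody gave 754.9 and 778.4 at 2 h and 6 h, next to the control values. No member was 2-fold higher at these times: 0 of 5 with the antibody at 2 h (0.471% of genes) and 6 h (0.766%), and 0 of 5 with TNF at 2 h (1.61%) and 6 h (2.14%).

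At 24 h the Zfp36 control signals were 784.8, 723.0, 784.5 and 763.3 and the antibody signals 642.7, 610.0, 638.5 and 717.3. The antibody arrays all lay below the controls, in 4 of 4 numbers, by a log2 difference of -0.29 to -0.09. The fitted change of -0.23 ± 0.13 was not called (limma, adjusted p = 0.999, and 0.271 with the block). With TNF the signals were 849.7, 624.2, 502.8 and 728.9, and with both agonists 618.1, 743.3 and 768.6, and both overlap the control. The 95% intervals of the change were -0.48 to 0.09 with TNF and -0.42 to 0.20 with both. Zfp36 and Zfp36l1 thus differed in the sign of their fitted change with the antibody, and the difference between the genes was not tested.

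Zfp36l2 showed no call in any comparison with the control, and its spread on the leading probe set followed the array number. On 1437626_at the control signals were 4595.7, 6462.6, 4822.7 and 4034.2, the antibody signals 4194.9, 5953.8, 4911.8 and 4897.9, the TNF signals 4356.6, 6019.6, 4284.6 and 5147.2, and those with both agonists 6474.5, 4808.3 and 4898.7. The array numbered 1 was the highest in each of the 4 groups. The change was 0.01 with the antibody (95% interval -0.32 to 0.35), 0.00 with TNF (-0.34 to 0.34) and 0.12 with both (-0.24 to 0.49). At 2 h the signals were 4617.4 in the control, 5218.7 with the antibody and 5540.0 with TNF, and at 6 h they were 4751.8, 4624.4 and 4677.5. The second probe set, 1451034_at, ran from 237.7 to 647.2 over all arrays and was not called either. There the array numbered 1 was the highest in the control (464.4) but the lowest with the antibody (366.7) and with both agonists (359.2). With TNF it had 445.7, below the 553.1 of number 3. The third, 1439054_at, was above the array median on 2 of 21 arrays and was not tested.

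Elavl1 was steady on its 2 brightest probe sets. On 1448151_at all 21 arrays lay between 1889.7 and 2335.1. With both agonists the signals were 2190.9, 2201.5 and 2160.3, above the 4 control signals of 2049.5, 2084.8, 1962.6 and 1927.5. The change of 0.12 ± 0.07 was not called (limma, adjusted p = 0.572, and 0.0503 with the block). The 95% intervals were -0.05 to 0.22 with the antibody and -0.13 to 0.14 with TNF. On 1431037_a_at, with 1247.8 to 1628.9 over all arrays, the change with both agonists was 0.15 ± 0.10. On 1452858_at, with 231.2 to 470.3, it was -0.32 ± 0.20, so the probe sets differed in sign. The other 3 probe sets (1445521_at, 1440464_at and 1428653_x_at) lay at 48.7 to 202.4, near the array medians.

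Zc3h12a was dim on both probe sets, 1443993_at near the array median and 1427348_at below it, and they did not give the same picture. On 1443993_at, above the median on 6 of 15 arrays at 24 h, the control signals were 97.6 to 140.9, with a mean of 114 ± 20 (SD, n = 4), and those with both agonists 110.8, 94.9 and 124.1, a change of -0.04 ± 0.22. On 1427348_at the control signals were 41.9, 85.5, 30.5 and 54.6, the antibody signals 49.3, 115.7, 81.4 and 75.7, the TNF signals 56.6, 122.3, 78.7 and 52.8, and those with both agonists 189.2, 99.7 and 64.9. The groups overlap, and the array numbered 1 was the highest in each. Within a number, the log2 difference from the control was 0.19, 0.40, 1.17 and 0.41 with the antibody, 0.36, 0.47, 1.13 and -0.04 with TNF (numbers 0 to 3), and 1.06, 1.43 and 0.21 with both (numbers 1 to 3). It was higher in 4 of 4, 3 of 4 and 3 of 3, against 2 of 4, 3 of 4 and 0 of 3 on 1443993_at. The treatments share the control array of each number, and how many genes reach such counts was not examined.

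Zc3h12a on 1427348_at was above the median only on the arrays numbered 1 with the antibody, TNF and both agonists, so it passed the filter only through treated arrays. All 4 control signals lay below their array medians, and no test on this probe set is given. At 2 h its signals were 52.5 in the control, 65.5 with the antibody and 89.2 with TNF, and at 6 h 71.8, 105.3 and 103.2. The 2 h and 6 h values are below the array medians.

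**Figure D3:**
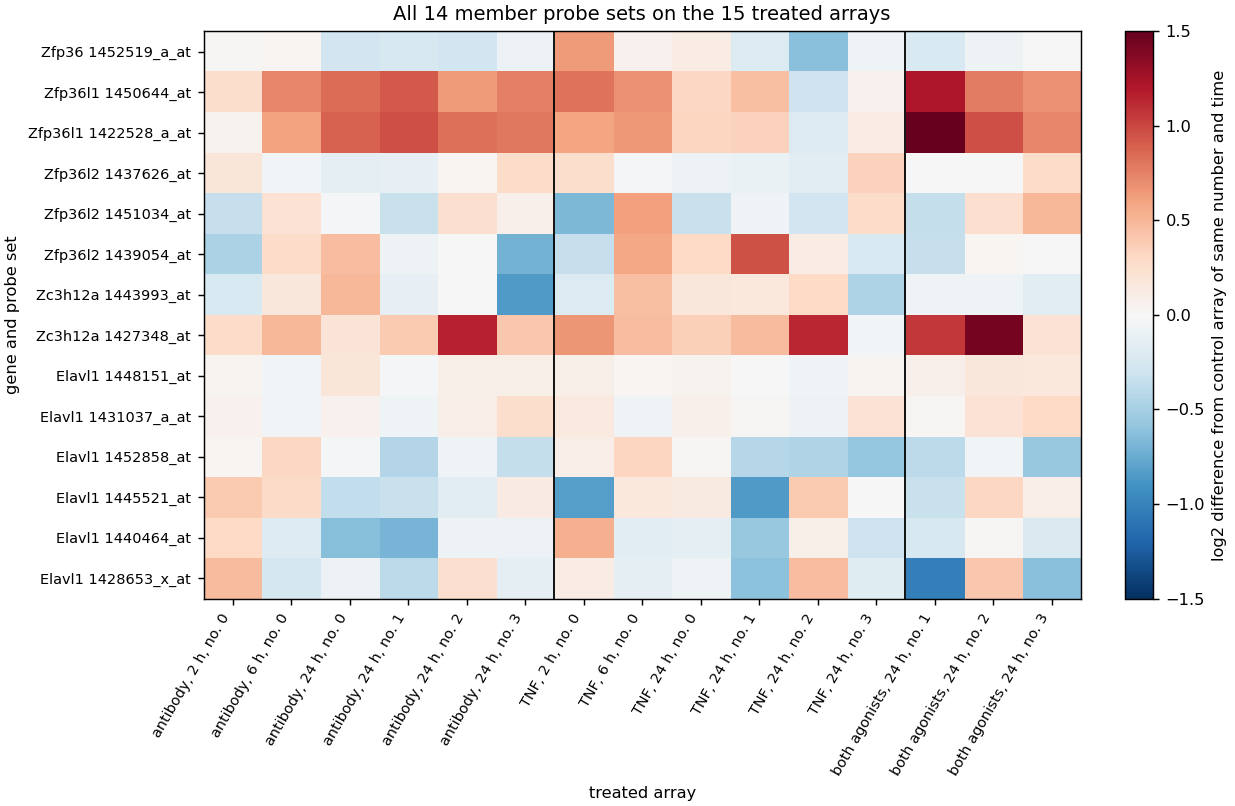
Log2 difference from the control array of the same number and time (colour, red higher and blue lower, capped at 1.5) for the 14 member probe sets (rows) on the 15 treated arrays (columns). Both Zfp36l1 rows are red on all 4 antibody arrays and all 3 arrays with both agonists at 24 h. The value for 1450644_at is 1.21 on the array of both agonists numbered 1. The Zc3h12a row 1427348_at, a dim probe set that passed the filter only through treated arrays, is higher on 14 of 15 arrays. The leading Zc3h12a row, 1443993_at, is higher on 7 of 15. The treated arrays share control arrays. The dimmer probe sets of Zfp36l2 and Elavl1 vary in both directions.

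The genes that act with these proteins were taken from 7 lists of 146 genes, fixed from general knowledge with earlier results of these data known, and 118 were tested. Without the block, 0 rose or fell with the antibody (0.129% of all genes were called), 1 rose with TNF (0.337%), and 5 rose and 0 fell with both agonists (2.45%, with 226 of 12446 genes higher). All of these stood in the list of transcripts known as targets of Zfp36 or Zc3h12a, in which 5 of 17 tested members rose with both. Ccl2, a monocyte chemokine, went from 195 ± 142 (SD, n = 4) to 6414 ± 1884 (n = 3), a log2 change of 5.23 ± 0.59 (limma, adjusted p = 0.000204), and it was the gene that rose with TNF. Lcn2, the iron-siderophore binder lipocalin 2, went from 418 ± 254 to 4431 ± 3421 (3.29 ± 0.67). Myc, a growth transcription factor, went from 461.5 ± 75.6 to 844 ± 78 (0.87 ± 0.17), and Tfrc, the transferrin receptor, from 1127 ± 101 to 1567 ± 102 (0.47 ± 0.09). The fifth, Lif, a cytokine of the interleukin 6 family, was named after its values were seen (138 ± 27 to 255 ± 14, 0.86 ± 0.18). The count of calls with both agonists over all lists was 3 without the array of both agonists numbered 1 and 2 without the one numbered 2.

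The median change with both agonists over the target list was 0.25, against 0.00 over all genes, with TNF it was 0.34 against -0.02, and with the antibody -0.01 against -0.01. Some target transcripts had lower means with both agonists and were not called: Fos, an AP-1 subunit, was at 951 ± 376 in the control and 386 ± 133 with both (-1.25 ± 0.42, adjusted p = 0.193), and Ptgs2, the inducible cyclooxygenase, at 1916 ± 302 and 1322 ± 348 (-0.55 ± 0.18, adjusted p = 0.166). These were named after their values were seen. With the replicate number as a block, which called 4.78%, 5.93% and 19.5% of all genes with the antibody, TNF and both, the counts over the 7 lists were 5 rises and 2 falls, 10 rises and 0 falls, and 13 rises and 8 falls. Fos and Ptgs2 were among the falls with both (adjusted p = 1.78e-05 and 0.00581). The block calls for the antibody over all genes were 318 higher and 277 lower, and 411 and 61 when the arrays were set to equal medians.

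The decay machinery itself gave 0 calls without the block in any of these 3 comparisons. Medians with both agonists were 0.01 over 16 other RNA-binding proteins and 0.01 over 19 deadenylation genes. They were 0.01 over 20 genes of decapping and 5′ to 3′ decay and 0.03 over 18 genes of the exosome and SKI complex. Over 11 genes of nonsense-mediated decay the median was 0.09. It was 0.00 over 17 genes for p38-MK2 kinases, phosphatases and other proteins acting on Zfp36. With the block, 5 rose and 5 fell with both agonists among the 101 tested genes of these 6 lists, or 9.9%, where 19.5% of all genes were called. Xrn1, the cytoplasmic 5′ to 3′ exonuclease (0.60, adjusted p = 0.0083), and Dcp2, the decapping enzyme (0.37, adjusted p = 0.00513), rose with both agonists. Map2k3, a kinase upstream of p38 (0.32, adjusted p = 0.00234), also rose. Btg1, an adaptor of the deadenylase complex (-0.31, adjusted p = 1.48e-05), and Cpeb4, a cytoplasmic polyadenylation element binder (-0.29, adjusted p = 0.00945), fell. Without the block the adjusted p of these 5 genes lay between 0.347 and 0.531.

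**Figure D4:**
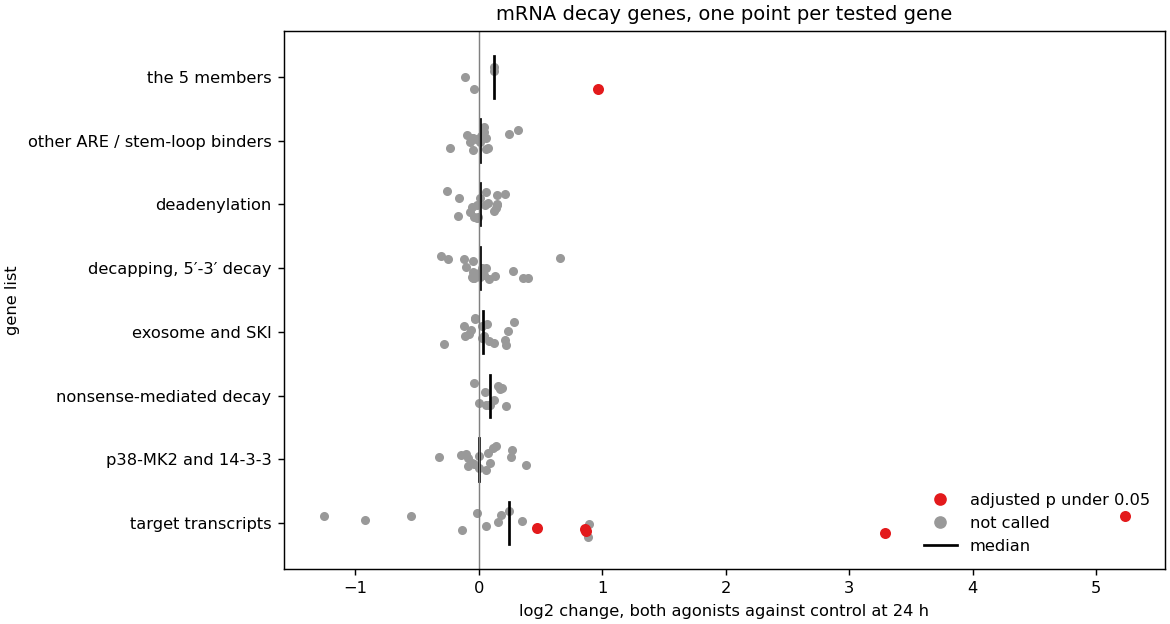
Log2 change with both agonists against the control at 24 h (horizontal axis) for each tested gene of the members and of the 7 lists (rows), without the block. Red points are called and black lines are medians; Zfp36l1 is the called member at 0.97, and the other called genes are the 5 target transcripts, with Ccl2 at 5.23.

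As a description, the genes with the most similar pattern were taken by Pearson r of the differences from the control array of the same number and time, over 15 treated arrays that share control arrays. For Zfp36l1 they were Ppp1r12b (0.87), a regulatory subunit of myosin phosphatase, Tgif2 (0.84), a homeobox repressor, and Ets2 (0.83), an ETS transcription factor. Ppp1r12b had log2 changes of 0.30 with the antibody, -0.13 with TNF and 0.80 with both. Those of Tgif2 were 0.38, -0.02 and 0.61, and those of Ets2 were 0.24, 0.03 and 0.14. For Zfp36 they were 4930470P17Rik (0.85), Bhlha15 (0.85) and Sele (0.85), the endothelial adhesion molecule E-selectin, and the 2 h TNF array enters each. With the antibody at 24 h their changes were -0.52, -0.27 and 0.41, against -0.23 for Zfp36. For Zfp36l2 they were Alg2 (0.88), Jam2 (0.87) and Cyth3 (0.87), and for Elavl1 Uba6 (0.82), Tyw1 (0.81) and Mex3b (0.80). For Zc3h12a, on its probe set near the median, they were Scn2b (0.89), Hnrnpm (0.88) and Ppp2r1b (0.87).

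The summed signals of the adipocyte markers did not overlap between the control (1332 to 2092) and both agonists (936 to 1062) at 24 h, with 2 of 3 markers above the median on each array and Adipoq, the defining one, on 0 of 21. With the antibody (868 to 1490) and TNF (906 to 1463) they overlapped the control. The lists that follow overlapped with it in each treatment given. The summed smooth muscle signal was 36957 to 47307 in the control, 34843 to 40926 with the antibody, 35991 to 40937 with TNF and 30204 to 39203 with both agonists. The control value of 36957 was that of the array numbered 0. Both agonists have no array of that number, so their ranges and those of the control hold unlike sets of arrays. The summed signal of adventitial fibroblast markers was 3864 to 6984 in the control and 4965 to 10199 with both, with 3 to 4 of 5 markers above the median. The macrophage list gave 1349 to 4221 in the control and 1530 to 4483 with both. The control value of 1349 was also that of the array numbered 0. The part of these cell types in the Zfp36l1 and target values was not tested.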

How the data were processed

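The samples were 21 arrays of 45101 probe sets. Values are linear signal intensities as deposited, made with GCOS 1.4 per the submitters' processing notes, and the summarization method is not given in the sources used here. Groups and numbers follow the labels. The members and lists were chosen with earlier results of these data known.

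Signals were used as log2(signal + 10.2), the 10th percentile of the 24 h values, without further normalization. A probe set was tested if above its array median on at least 3 of 15 arrays at 24 h. This left 25110 probe sets, 13 of 14 for the members. Genes (12446) were tested on the probe set with the highest mean, whose names come from the platform annotation, with 932 probe sets of several symbols and 9160 of none left unnamed. The fit used limma 3.58.1 in R 4.3.3 with a variance trend and all 15 arrays. It had 11 residual degrees of freedom, or 8 for the blocked fit. It was also run on simulated data, and the outcome of that run is not given here. At 2 h and 6 h differences were taken without a test. Promoters were matched by symbol.

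Whether the numbers pair the arrays was checked on log2 values with group means removed: 21 pairs of the same number correlated at 0.46 to 0.81, and 63 other pairs at -0.58 to 0.21. They pair the arrays, so blocked values stand beside results they change. Named genes were every member, up to 4 genes per list by smallest adjusted p with both agonists, and the 3 genes most like each member. Alternatives were the block, the arrays numbered 1 to 3, other pseudocounts, filters, scalings and probe set rules, no variance trend, and each array left out. The number of arrays limits the precision.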

Additional observations from a re-analysis of the deposited data

Results flagged for a closer look

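Of 42 groups of 4 arrays at 24 h, 3 held an array whose gap to the next exceeded the share of the group's range set by Dixon's critical value; chance alone gives such a gap in about 1 in 20 groups. On the second Zfp36l1 probe set (1422528_a_at) the control numbered 0 was low, at 453.1 against 555.3 to 575.9 for the others. On Elavl1 (1448151_at) the antibody array numbered 0 was high, at 2335.1 against 2042.4 to 2081.9. On Elavl1 (1445521_at) the TNF array numbered 1 was low, at 92.1 against 168.7 to 185.6. The arrays numbered 0 are those with high endothelial marker signals, and the part of those cells in the first and second values was not tested.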

How the results depend on the processing

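Of 793 alternative values for 49 results, 705 kept their direction and their side of the threshold. The Zfp36l1 change with both agonists kept its call in all 26 alternatives (0.89 to 1.05). With the antibody it lost the call at equal array medians (0.87, adjusted p = 0.0572), which left 0 members called, and in 4 of 15 fits that leave out 1 array (0.71 to 0.85 over the 15, with 0 to 1 members called). Against TNF the call for both agonists was lost with the arrays numbered 1 to 3 (0.82), no filter (0.84), equal medians (0.79), no variance trend (0.84) and 13 arrays left out in turn (0.75 to 0.91). The replicate block called TNF against the antibody for Zfp36l1 (-0.66, and -0.70 at equal medians). Genes of the lists called with both agonists numbered 5, and 21 with the block, 16 with the block and equal medians, 3 with a filter on all arrays and 2 to 6 with 1 array left out.

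Values near 0 changed sign. With the mean of a gene's probe sets Zc3h12a was at 0.21 with the antibody and 0.47 with both, Elavl1 at -0.12, -0.12 and -0.11 with the antibody, TNF and both, and Zfp36l2 at -0.051 with TNF. Zfp36l2 with TNF was at -0.018 after quantile normalization, and Elavl1 with TNF at -0.0064 with the arrays numbered 1 to 3. The Zfp36l1 departure from the sum was -0.0059 with the block, -0.077 at equal medians and -0.12 with both. With 1 array left out the ranges were -0.038 to 0.12 for this departure, -0.080 to 0.15, -0.098 to 0.13 and -0.015 to 0.26 for Zfp36l2 with the antibody, TNF and both, -0.26 to 0.023, -0.019 to 0.14 and -0.12 to 0.060 for Zc3h12a, and -0.017 to 0.038 for Elavl1 with TNF. The filter on all arrays gave no Zc3h12a value. Beyond the changes given here and in the report, the block changed no call of a member's leading probe set against the control. The causes were not tested.

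Equal medians moved the median change of all genes with the antibody from -0.01 to 0.07. Signals near the array median, as for Zc3h12a, limit what can be seen there, as do 3 or 4 arrays a group and 1 array a group at 2 h and 6 h.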
